A study of Mus musculus with 2 samples.

Results

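The COUP-TF family, 3 of the 31252 gene rows measured, was followed in the ventral midbrain of mice made to overexpress one of its members. The rows are those named Nr2f1, Nr2f2 and Nr2f6 in the table of counts, and all 3 passed the minimum of 10 counts on average over the 2 libraries. Nr2f1 encodes COUP-TFI, Nr2f2 encodes COUP-TFII and Nr2f6 encodes the more distant relative EAR2.

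COUP-TFs are orphan nuclear receptors, transcription factors with a DNA-binding domain of zinc fingers and a ligand-binding domain for which no natural ligand is settled. They bind repeats of the half-site AGGTCA as pairs and most often repress transcription, by calling in corepressors or by taking up sites and partners that other nuclear receptors use. In the brain, COUP-TFI is known for patterning the neocortex, COUP-TFII for the migration of interneurons and the identity of veins, and EAR2 for the development of the locus coeruleus.

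Ventral midbrain, which holds the substantia nigra and the ventral tegmental area, was taken at 2 months of age from mice described as incipient congenic C57BL/6. Mice of both groups, Ctrl and OE, carry Slc6a3-Cre, in which the dopamine transporter gene drives Cre recombinase in dopaminergic (DA) neurons. OE mice carry in addition CAG-S-COUP-TFII, an allele at ROSA26 that expresses COUP-TFII once Cre has acted. The cross that the methods give for Ctrl and OE littermates also hands down a floxed Tfam allele and a ROSA26-tdTomato reporter. There is 1 library per group, with no mention of how many mice went into it, so nothing below has a replicate check, and no p-value was computed. The sources used here do not say whether reads from the allele are counted in the row named Nr2f2.

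The members are similar enough in sequence for some reads to match more than 1 of them, so their sequences are shown first. The stretch printed for each codes for the first zinc finger of the DNA-binding domain and was found by the spacing of its cysteine codons. It lies in exon 1 of the transcript with the longest coding sequence (GENCODE M21, GRCm38, minus strand): chr13:78198265-78198327 for Nr2f1, chr7:70360033-70360095 for Nr2f2 and chr8:71381041-71381103 for Nr2f6. In Nr2f1 and Nr2f6, capitals mark bases unlike those of Nr2f2, and in Nr2f2 they mark bases at which either of the others is unlike it.
Nr2f1: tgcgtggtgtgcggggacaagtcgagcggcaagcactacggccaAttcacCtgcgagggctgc
Nr2f2: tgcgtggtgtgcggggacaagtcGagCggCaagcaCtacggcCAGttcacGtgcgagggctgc
Nr2f6: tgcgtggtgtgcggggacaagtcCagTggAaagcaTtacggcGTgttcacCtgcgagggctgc

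Over these 63 bases, Nr2f1 had the base of Nr2f2 at 61 positions and Nr2f6 at 56. All 21 codons named the same amino acids in Nr2f1 and Nr2f2, and 20 did in Nr2f6. Over the whole aligned coding sequence, 83.2% of bases were identical between Nr2f1 and Nr2f2, 72.1% between Nr2f1 and Nr2f6, and 70.1% between Nr2f2 and Nr2f6. The finger is thus among the more alike parts of these genes.

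The longest stretch that transcripts of Nr2f1 and Nr2f2 share was 59 bases, which begin before the finger and run through most of it. It is shown because a read of 50 bases, the length given in the methods, that falls inside it cannot be assigned to either gene by its letters alone.
Shared by Nr2f1 and Nr2f2: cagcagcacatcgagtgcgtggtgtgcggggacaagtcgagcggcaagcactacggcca

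Such stretches were rare. Of the 5090 different windows of 50 bases in the annotated transcripts of Nr2f1, 10 were found in Nr2f2, and none in another gene on the same strand. In Nr2f2, 33 of 8582 windows, or 0.385%, occurred in any other gene on the same strand, those 10 included. Nr2f6 shared 0 of its 3192 windows with any other gene on the same strand. All 6 member counts were whole numbers.

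The counts summed to 16984336 in the Ctrl-labelled library and 21326632 in the OE-labelled library. Beside each value stands a 95% interval from counting error alone. Levels are in CPM, counts per 1000000 counts of the library, after scaling by the TMM method, and fold changes are the OE-labelled library over the Ctrl-labelled library. The samples are labelled as dopaminergic neurons, but the RNA is that of whole tissue. Markers of oligodendrocytes, the myelin-forming cells, summed to 19100 CPM in the Ctrl-labelled library and 15900 CPM in the OE-labelled library, and those of DA neurons to 1520 and 3600 CPM. In such bulk RNA, fewer cells of a type and less RNA per cell cannot be told apart.

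Nr2f2, the gene that the OE allele expresses, was lower over the whole tissue in the OE-labelled library, against its label. It had 637 counts in the Ctrl-labelled library and 377 in the OE-labelled library, although the latter was sequenced more deeply. After scaling, these were 37.3 CPM (interval 34.5 to 40.3) and 17.8 CPM (interval 16.0 to 19.7). The level in the Ctrl-labelled library was 2.10-fold that in the OE-labelled library, with an interval from 1.84 to 2.39. On the log2 scale, the fold change was -1.07 (interval -1.26 to -0.88). The Nr2f2 row covers whole tissue, while the allele acts in DA neurons, so the row does not give the level in those neurons. Whether labels or columns were exchanged was not tested, and an exchange would turn every direction given here. Both labels are kept as given, and each direction below is that of the labels.

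Changes of this size were uncommon among the 15246 genes with an average of at least 10 counts. By more than log2 0.2, the threshold used in the study, 16.6% of these genes were lower in the OE-labelled library, and 9.16% were lower with a counting interval below 0 as well. By more than log2 1, 1.28% were lower, and Nr2f2 was one of them, although its interval reached above -1. Of all genes tested, 1.10% had a fold change below that of Nr2f2.

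**Figure D1:**
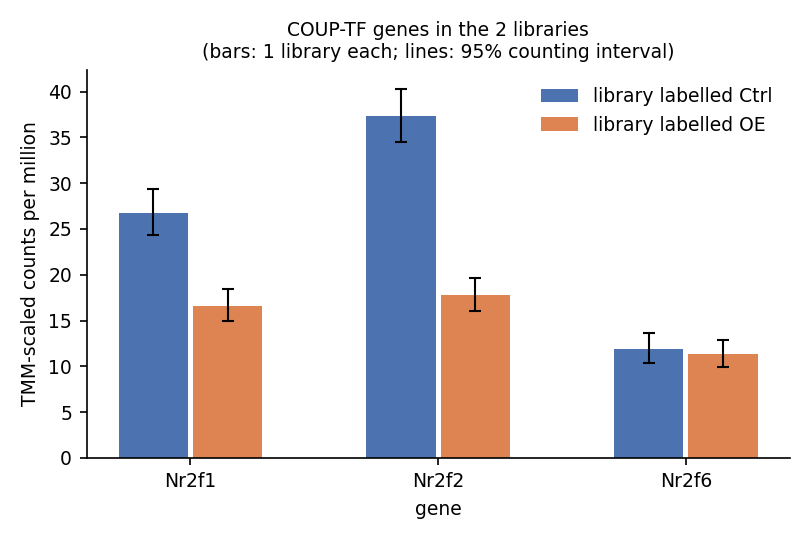
TMM-scaled CPM of the 3 COUP-TF genes (vertical axis) in the Ctrl-labelled library (blue) and the OE-labelled library (orange). Each bar is 1 library and each line its 95% counting interval. Nr2f2 (37.3 and 17.8 CPM) and Nr2f1 (26.8 and 16.6 CPM) stood lower in the OE-labelled library with intervals that do not meet, while the intervals of Nr2f6 (11.9 and 11.4 CPM) overlap.

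Nr2f1 was also lower in the OE-labelled library, by less. It had 457 counts in the Ctrl-labelled library and 352 in the OE-labelled library, or 26.8 CPM (interval 24.4 to 29.3) and 16.6 CPM (interval 14.9 to 18.4). The intervals of both libraries do not overlap. The log2 fold change was -0.69 (interval -0.89 to -0.49), and 2.79% of the genes tested had a lower one.

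Nr2f6 was at nearly the same level in both libraries. Its 203 counts in the Ctrl-labelled library and 241 in the OE-labelled library scaled to 11.9 CPM (interval 10.3 to 13.6) and 11.4 CPM (interval 9.97 to 12.9). The log2 fold change of -0.066 had an interval from -0.34 to 0.21, which includes 0, so that counting error left its direction undetermined at this depth. Of the genes tested, 34.9% had a lower fold change.

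Thus 2 of the 3 members were lower in the OE-labelled library by more than log2 0.2 with an interval below 0, beside 9.16% of all genes tested. None was higher by log2 0.2, which 17.9% of all genes were. The 3 rows together had 1297 counts in the Ctrl-labelled library and 970 in the OE-labelled library, or 76.0 and 45.7 CPM. The log2 fold change of this sum was -0.73 (interval -0.85 to -0.61).

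Markers of other cells and regions also differed between the libraries, and their part in the values of Nr2f1 and Nr2f2 was not tested. All 8 thalamus markers were lower in the OE-labelled library by more than log2 0.2, with a median of -2.62 and a summed level of 472 CPM in the Ctrl-labelled library and 154 CPM in the OE-labelled library. One of them, Gbx2, was at 0 in the OE-labelled library, and the median stayed the same with that count set to 3. All 15 markers of DA neurons were higher, with a median of 1.29, and none was at 0. Of all genes tested, 16.6% were lower and 17.9% higher by more than log2 0.2. Nr2f1 and Nr2f2 thus differed in the direction of the thalamus markers and against that of the DA markers. That direction was not particular to the thalamus list. Below 0 were also 8 of 8 markers of mural cells and fibroblasts and 6 of 6 of oligodendrocytes. The same held for 6 of 6 astrocyte and 9 of 11 endothelial markers. Hypothalamus markers split into 4 below and 3 above 0, and GABAergic ones into 3 and 4. All lists were chosen with earlier results of these data known. The differences of Nr2f1 and Nr2f2 were smaller than the median of the thalamus markers. Among the 8, only Ntng1, with -0.57 (interval -0.67 to -0.48), differed less than Nr2f1 and Nr2f2. Plekhg1 came next with -1.36 (interval -1.48 to -1.23). The interval of Ntng1 overlaps that of Nr2f1 (-0.89 to -0.49).

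**Figure D2:**
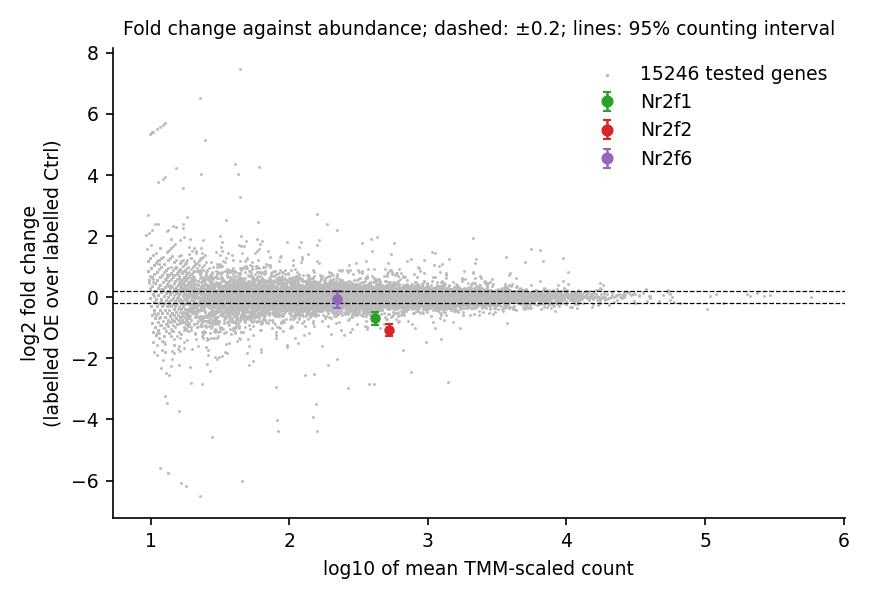
Log2 fold change of the OE-labelled library over the Ctrl-labelled library (vertical axis) against the log10 of the mean TMM-scaled count (horizontal axis) for the 15246 genes tested (grey). The COUP-TF genes are drawn with their 95% counting intervals, and dashed lines mark log2 0.2 either way. Nr2f2 (-1.07) and Nr2f1 (-0.69) lie below the main body of genes of like abundance and Nr2f6 (-0.066) lies within it.

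Whether the members differed from each other in their change can be read without any scaling, from the ratio of their counts within a library. For each pair, the change of that ratio is given with an exact conditional interval, and 3 pairs were compared. The ratio of Nr2f2 to Nr2f6 was 3.14 in the Ctrl-labelled library and 1.56 in the OE-labelled library, a log2 change of -1.004 (interval -1.34 to -0.67). Nr2f1 over Nr2f6 went from 2.25 to 1.46, a log2 change of -0.62 (interval -0.97 to -0.28). Between the close relatives Nr2f2 and Nr2f1, the ratio went from 1.39 to 1.07, a log2 change of -0.38 (interval -0.66 to -0.10). All 3 intervals lay below 0, so between these libraries Nr2f2 differed more than Nr2f1, and both more than Nr2f6, beyond counting error.

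The make-up of the family's counts shifted accordingly. Nr2f2 held 49.1% of them in the Ctrl-labelled library (Clopper-Pearson interval 46.4 to 51.9%) and 38.9% in the OE-labelled library (interval 35.8 to 42.0%). Nr2f6 held 15.7% (interval 13.7 to 17.7%) and 24.8% (interval 22.2 to 27.7%). The share of Nr2f1, 35.2% (interval 32.6 to 37.9%) and 36.3% (interval 33.3 to 39.4%), did not differ beyond counting error. These are shares of counts, in which a long transcript weighs more than a short one.

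**Figure D3:**
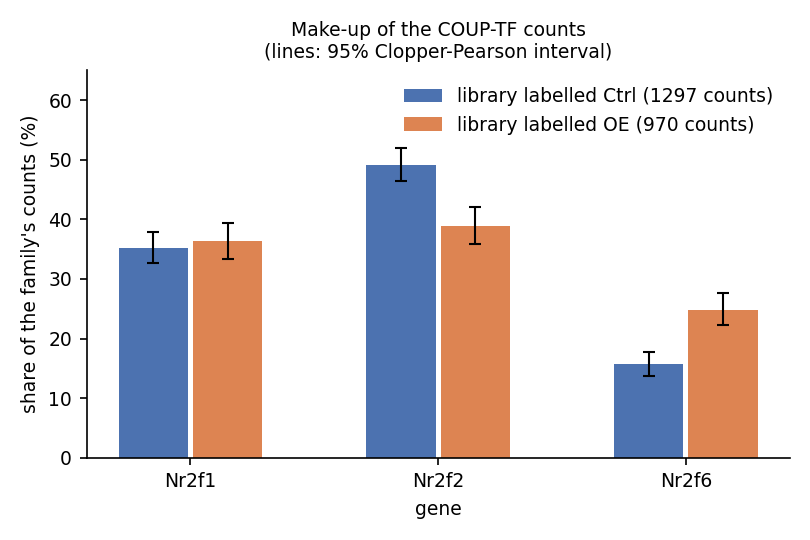
Share of the summed counts of Nr2f1, Nr2f2 and Nr2f6 held by each gene (vertical axis, percent) in the Ctrl-labelled library (blue, 1297 counts) and the OE-labelled library (orange, 970 counts), with 95% Clopper-Pearson intervals. Nr2f2 goes from 49.1% to 38.9% and Nr2f6 from 15.7% to 24.8%, while the intervals of Nr2f1 overlap.

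To set the levels of different genes side by side, CPM were divided by length in kb. With all annotated exons of a gene joined (5093 bp in Nr2f1, 8625 bp in Nr2f2 and 2983 bp in Nr2f6), the levels per kb in the Ctrl-labelled library were 5.26 for Nr2f1 (interval 4.78 to 5.76), 4.33 for Nr2f2 (interval 4.0 to 4.67) and 3.99 for Nr2f6 (interval 3.46 to 4.57). Nr2f2 and Nr2f6 did not differ there beyond their intervals. In the OE-labelled library, Nr2f6 was first with 3.81 (interval 3.34 to 4.32), Nr2f1 followed with 3.26 (interval 2.93 to 3.62), which did not differ from it beyond the intervals, and Nr2f2 was last with 2.06 (interval 1.86 to 2.28). On this scale the members are middling genes: between 28.6% and 51.3% of the genes tested that had a length lay below them.

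This order rests on the length used. The joined exons of Nr2f2, at 8625 bp, are longer than its longest annotated transcript, at 4222 bp. Per kb of coding length (1260, 1242 and 1170 bp), Nr2f2 came first in both libraries, with 30.0 in the Ctrl-labelled library and 14.3 in the OE-labelled library. Nr2f1 followed with 21.2 and 13.2, and Nr2f6 with 10.2 and 9.71. In the OE-labelled library, the coding-length intervals of Nr2f2 (12.9 to 15.8) and Nr2f1 (11.8 to 14.6) overlapped. The counts are also summed over isoforms: the first finger is coded by 1 of 3 annotated coding transcripts of Nr2f2, 1 of 5 of Nr2f1 and 2 of 3 of Nr2f6, and the row of a gene does not tell them apart.

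Each member overlaps a gene on the opposite strand. Libraries were made with a stranded kit, but the sources do not say whether the counting used strand, and without it reads of such a pair cannot be told apart. A830082K12Rik, an antisense RNA that starts inside Nr2f1 (chr13:78198017-78279391, plus strand), had 82 counts in the Ctrl-labelled library and 56 in the OE-labelled library, a log2 fold change of -0.86 (interval -1.38 to -0.36). It was lower in the OE-labelled library, as Nr2f1 was, and 1.10% of the 50-base windows of Nr2f1 lie opposite to it. B130024G19Rik, which overlaps Nr2f2 (chr7:70364910-70489972, plus strand), had only 17 and 12 counts, a log2 fold change of -0.79 whose interval, -2.01 to 0.34, included 0. It lies opposite to 6.92% of the windows of Nr2f2.

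Nr2f6 shares the most with its opposite neighbor. Ocel1, a protein-coding gene (chr8:71371298-71379361, plus strand), covers 43.4% of the windows of Nr2f6, but it had 26 and 52 counts against the 203 and 241 of Nr2f6. Its log2 fold change was 0.68 (interval -0.019 to 1.43).

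The nearest counted genes that do not overlap a member moved little where counts sufficed to read a fold change. Beside Nr2f6, Use1 and Ushbp1 both had a log2 fold change of 0.15 (intervals 0.007 to 0.29 and -0.25 to 0.56). Fam172a and Arrdc3, on either side of Nr2f1, had -0.15 (interval -0.30 to 0.003) and -0.089 (interval -0.17 to -0.008). They lie 22737 and 2683626 bp from Nr2f1. Mctp2, which lies 1711094 bp from Nr2f2 on one side, had -0.19 (interval -0.59 to 0.21). On the other side, 4930402F11Rik, at 801270 bp, had 1 and 0 counts. The counts of 4930402F11Rik are too few to read a fold change. None of the other neighbors in this paragraph was past log2 0.2, where Nr2f1 and Nr2f2 were.

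Promoters of the members were searched for the half-site AGGTCA on both strands, in windows of 300 bases around RefSeq start sites (GRCm38.p6). It was in none of the 2 windows of Nr2f1, the 1 of Nr2f2 or the 1 of Nr2f6, and in 16.3% of all 32851 windows. This says only that these letters are not in those windows.

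Vessels, whose veins are a known site of COUP-TFII, were looked at among the markers as well, and the part of their values in those of Nr2f2 was not tested. Of 11 endothelial markers, 6 were lower by more than log2 0.2 and none higher (1 when scaled by the upper quartile), with a median of -0.22 and 388 and 342 CPM in sum. The lowest of the 11 were Slc38a5, an amino acid transporter, with -1.37 (57 and 27 counts), and the adhesion proteins Vcam1 and Vwf with -0.52 and -0.49. Ackr1, a chemokine-binding receptor of venous endothelium, was at 0.10 (interval -0.082 to 0.29). Among 8 markers of mural cells and fibroblasts, 6 were lower and none higher, with a median of -0.39 and 214 and 163 CPM in sum. Of all genes tested, 16.6% were lower and 17.9% higher by more than log2 0.2.

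Markers of glia and of other neurons were counted in the same way. Astrocyte markers had 1 of 6 lower, a median of -0.11 and 3060 and 2770 CPM in sum, and 4 of 6 oligodendrocyte markers were lower, with a median of -0.32. Of 7 tested hypothalamus markers, 4 were lower and 3 higher, with a median of -0.26 and 17.6 and 15.7 CPM in sum. Of the 4 lower ones, 2 had an interval below 0, and all 3 higher ones had an interval above 0. The median hides large differences both ways, as in Oxt (48.4 and 2 counts) and Nkx2-1 (27 and 96 counts). Otp and Fezf1 were at 0 in the Ctrl-labelled library and Agrp in the OE-labelled library. Of 7 tested markers of GABAergic neurons, which include forebrain interneurons, 1 was lower and 2 higher, with a median of 0.10 and 1050 and 1020 CPM in sum. Across all genes tested, the median was 0.005, with 16.6% lower and 17.9% higher.

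Of the listed relatives from the same subfamily, NR2, Nr2c1 and Nr2c2 were closer to Nr2f6 than to Nr2f2. Nr2c1 and Nr2c2, the testicular receptors, had log2 fold changes of -0.038 (interval -0.29 to 0.21) and -0.15 (interval -0.24 to -0.066). Nr2e1, or Tlx, a regulator of neural stem cells, had 71 counts in the Ctrl-labelled library and 61 in the OE-labelled library, and its value of -0.53 had an interval from -1.05 to -0.018. Nr2e3, a receptor of photoreceptors, had 0 counts in both libraries. Nr2e1 was the 1 of 3 tested relatives lower by more than log2 0.2, and none was higher, beside 16.6% and 17.9% of all genes tested.

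Cofactors that bind COUP-TFs went both ways. Of 12 listed, 3 were lower in the OE-labelled library by more than log2 0.2 and 2 were higher (1 when scaled by total counts), beside 16.6% and 17.9% of all genes tested. Their median was -0.058. Prox1, a homeodomain protein that pairs with COUP-TFII in lymphatic endothelium and is also made by neurons of the thalamus, was the lowest with -0.56 (302 and 255 counts, interval -0.80 to -0.31). Sp1, a general activator through which COUP-TFs can act, had -0.41 (interval -0.55 to -0.27) and the deacetylase Hdac1 -0.22 (interval -0.40 to -0.040).

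On the higher side, Bcl11b, a zinc finger protein first found as a COUP-TF interacting protein, had 0.62 (154 and 295 counts, interval 0.34 to 0.92). Its near relative Bcl11a differed less, with -0.012 (interval -0.26 to 0.24). The corepressor Ncor1 had -0.17 (interval -0.25 to -0.090). Sqstm1, a ubiquitin-binding protein that was also described as a partner of COUP-TFII, was the most abundant row of the list in counts, with 6556 and 8284, and had 0.024.

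Receptors that pair with COUP-TFs or compete for their sites were counted next. Of 8 tested, none was lower by more than log2 0.2 and 3 were higher, beside 16.6% and 17.9% of all genes tested, with a median of 0.027. Rxra and Rxrb, the retinoid X receptors with which COUP-TFs can form heterodimers, had -0.010 (interval -0.15 to 0.13) and -0.046 (interval -0.19 to 0.10). The 3 higher ones were Rara with 0.33, Thrb with 0.26 and Rxrg with 0.26, of which Thrb, a thyroid hormone receptor, had an interval above 0 (0.060 to 0.47). Hnf4a, a liver receptor that uses the same sites, had 0 and 2 counts and was not tested.

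Among 18 genes described as regulated by COUP-TFs in other tissues, 17 were tested, 6 were lower by more than log2 0.2 and 2 were higher, beside 16.6% and 17.9% of all genes tested, with a median of -0.011. Oxt, the oxytocin precursor, whose promoter COUP-TFs can repress, had 48.4 counts in the Ctrl-labelled library and 2 in the OE-labelled library. It is also in the hypothalamus list, and its log2 fold change had an interval from -7.98 to -2.97. Pax6, a regulator of eye and forebrain, had -0.59 (interval -0.97 to -0.21), the vein receptor Ephb4 -0.42 (interval -0.80 to -0.043) and the endothelial growth factor receptor Kdr -0.40 (interval -0.63 to -0.16).

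The immediate early gene Egr1 had -0.27 (interval -0.45 to -0.082) and transferrin, counted in the row named Trf, -0.25 (interval -0.28 to -0.22). On the higher side were Nrp2, a semaphorin receptor described as activated by COUP-TFII, with 0.31 (534 and 821 counts, interval 0.15 to 0.47), and the cell cycle factor E2f1 with 0.42, whose interval of -0.094 to 0.95 included 0. Nrp1, the related receptor, had -0.14 (interval -0.29 to 0.005). Ppargc1a and Esrra, regulators of mitochondrial genes, had 0.12 each (intervals 0.015 to 0.23 and -0.025 to 0.28).

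**Figure D4:**
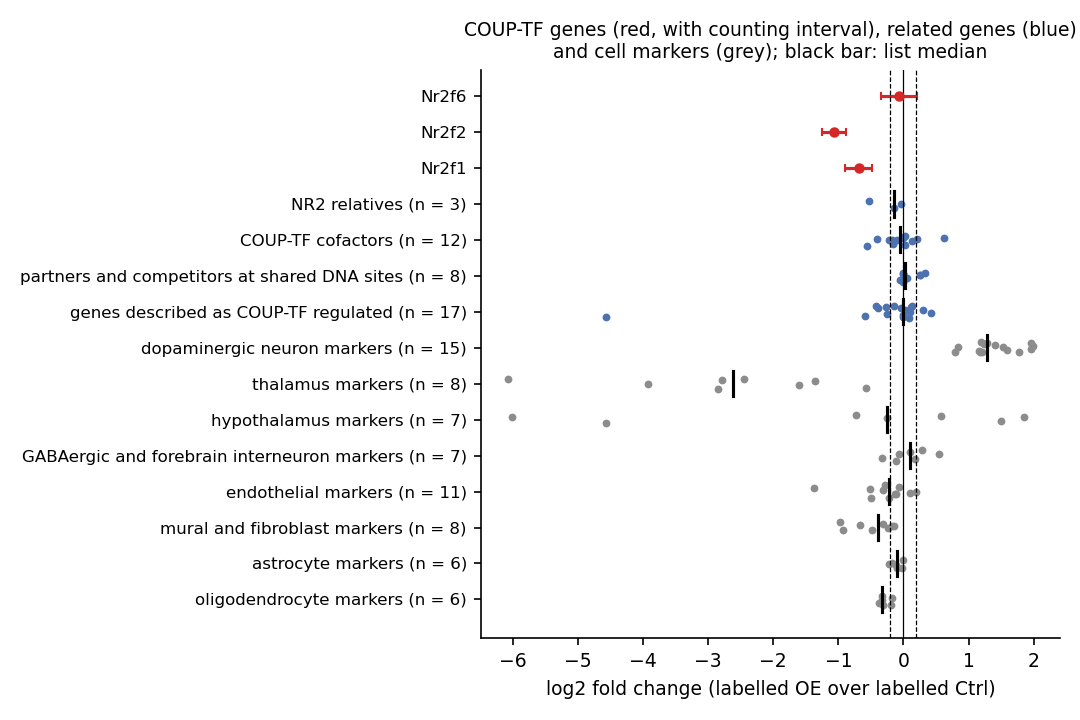
Log2 fold change of the OE-labelled library over the Ctrl-labelled library (horizontal axis) for the COUP-TF genes (red, with 95% counting intervals), related genes (blue) and cell markers (grey), 1 point per tested gene and 1 line per list, with the list's median as a black bar and log2 0.2 either way dashed. Medians of the related genes lie between -0.15 and 0.027, those of the thalamus and DA neuron markers at -2.62 and 1.29.

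With 2 libraries, a pattern is only a pair of levels. By the distance between genes in the log2 levels per kb of joined exons, the genes most like Nr2f2 among 13838 were Calca (distance 0.048), Plch2 (0.15) and Gpc3 (0.16). Calca, the precursor of the peptide CGRP, had 121 counts in the Ctrl-labelled library and 75 in the OE-labelled library, and levels of 4.21 and 2.10 per kb. Within a distance of 0.5 of Nr2f2 there were 39 genes, against 543 for Nr2f1 and 1626 for Nr2f6. Nearest to Nr2f1 were Rasd1 (0.067), Pcdhga6 (0.086) and Plekhd1 (0.094), and to Nr2f6 Serpinb9 (0.0088), Skil (0.0097) and Prpf3 (0.011).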

How the data were processed

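RNA of the ventral midbrain was measured in 2 libraries. Samples were sent to a sequencing company, where stranded mRNA libraries were made, sequenced as paired reads of 50 bases and passed through an in-house pipeline. What the authors deposited are the resulting RSEM expected counts per gene, unscaled, for 31252 rows, of which 12040 were at 0 in both libraries. The submitters' processing notes name mm10. The aligner, the RSEM version and the annotation are not given in the sources used here. Columns were assigned by the numbers 77 and 78 that they share with the sample titles. As a count over whole tissue, Nr2f2 goes against these labels, which were not changed.

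Counts were scaled with TMM (edgeR 4.0.16, R 4.3.3). Log2 fold changes used a pseudocount of 0.5 scaled counts. A gene was tested where its mean over both libraries reached 10 counts, which left 15246. Intervals of 95% on rounded counts were Clopper-Pearson for splits and shares, exact Poisson for levels and exact conditional for ratios of ratios (scipy 1.17.1, numpy 2.4.6, pandas 2.3.3, Python 3.11.15). Counting error is all that they cover, so they set 1 library against another and not 1 genotype against another. Lengths, places and transcripts came from GENCODE M21 and alignments from Biopython 1.88. A length was found for 13850 genes tested. The interval method was tested on simulated data that held counting error alone, so that test says nothing of differences between mice or libraries. Figures used matplotlib 3.10.9.

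Named genes were the members, the listed genes, annotated neighbors and the 3 genes nearest to each member in level. Neighbors missing from the count rows were passed over for the next counted gene. The members and all lists were chosen from general knowledge with earlier results of these data known, and none of them is independent support. The values of 1 listed gene are not reported here. Tf and Ackr1 were found under the older names Trf and Darc.

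Alternatives were scaling by total counts, the upper quartile or DESeq2 size factors (DESeq2 1.42.0), a pseudocount of 5, other count minimums and other lengths.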

Additional observations from a re-analysis of the deposited data

How the results depend on the processing

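No paired analysis was possible because the files hold 1 library per group, and for the same reason none could be left out in turn. Scaling and pseudocount kept all 3 members on the same side: Nr2f2 from -1.08 to -1.05, Nr2f1 from -0.70 to -0.67 and Nr2f6 from -0.081 to -0.052. The median fold change of the genes tested lay between -0.011 and 0.018 in all 4 scalings. Genes higher by more than log2 0.2 made up 51.8% of those past it either way, 47.9% when scaled by total counts and 55.4% by the upper quartile.

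The count minimum, by its construction, moved the counts of genes. With all genes with a count, 4497 were lower and 4513 higher by more than log2 0.2, and 1294 lower by more than log2 1. With a mean of at least 100 counts, these were 1377, 1522 and 30. A pseudocount of 5 left 124 lower by more than log2 1. With total counts, 1 cofactor was higher in place of 2, and with the upper quartile 1 endothelial marker in place of 0.

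The order of the members depends on the length. With the longest transcript, Nr2f2 ranked 1 and Nr2f1 2 in the Ctrl-labelled library, and Nr2f1 ranked 1 and Nr2f6 2 in the OE-labelled library. With coding length, Nr2f2 ranked 1 and Nr2f1 2 in the Ctrl-labelled library, and Nr2f2 ranked 1 and Nr2f6 3 in the OE-labelled library. As shares per kb of joined exons, Nr2f2 held 31.9% and 22.6% of the family in the libraries labelled Ctrl and OE, Nr2f6 29.4% and 41.7%, and Nr2f1 38.7% in the former. At 203 and 241 counts, depth left the direction of Nr2f6 undetermined.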
